A study of Mus musculus with 4 samples.

Results

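The genes described here were the molecular chaperones named as heat shock proteins (HSP), J-domain proteins (DNAJ) or subunits of the chaperonin TRiC (CCT). They were taken by symbol from the 31053 genes of the count tables. Protein-coding genes named Hspa to Hsph, Hsp with a number, Dnaja, Dnajb or Dnajc with a number, or Cct2 to Cct8 were kept, together with Tcp1, which encodes the first TRiC subunit. This gave 84 genes, of which 30 were HSP, 45 DNAJ and 9 CCT genes. The symbols brought in some genes that are not chaperones. Hspg2 encodes perlecan, a heparan sulphate proteoglycan of basement membranes, and matched by its letters alone.

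The samples were primary cortical neurons cultured from the cortices of wild-type C57BL/6J mouse embryos, dissected at E18. The study's methods describe floxuridine added to such cultures to limit dividing cells and collection at DIV 14, and name no pooling of embryos. The small subunit ribosomal protein RPS2 was pulled down by enhanced crosslinking and immunoprecipitation (eCLIP), which trims the RNA with RNase I and sequences the fragments that stay bound. IP and total RNA had 2 libraries each, and the total RNA came from the same samples ahead of the pulldown. The question put to each gene was how much of its RNA was recovered with the ribosomal protein relative to its abundance. Ribosomal RNA depletion is the treatment that the labels give the IP libraries, and they give total RNA none. If so, its effect cannot be told apart from that of the IP.

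Chaperones of the HSP70 class bind exposed hydrophobic stretches of a protein and release them in cycles of ATP hydrolysis. J-domain proteins bring clients to HSP70 and speed up that hydrolysis, and nucleotide exchange factors such as the HSP110 proteins reset the cycle. HSP90 acts later, on clients near their native fold, while TRiC is a double ring of 8 different CCT subunits that folds actin and tubulin. In neurons, HSP70 and its J-domain partners also strip clathrin from vesicles and keep the synaptic vesicle release machinery folded.

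Library totals ran from 4899718 to 16460545 counts, with the IP libraries the deeper pair. A count of 3 stood for 0.217 and 0.269 CPM in the IP libraries and for 0.668 and 0.493 CPM in total RNA (CPM, counts scaled by TMM and given per 1000000). Neurons were marked by all 10 of their marker genes, which summed to between 4795 and 5555 CPM in the 4 libraries. The sum over 8 astrocyte markers was 3470 and 1402 CPM in IP replicates 1 and 2 and 2880 and 1279 CPM in total RNA replicates 1 and 2. Markers of microglia summed to 85.2 and 90.2 CPM in the replicate 1 libraries and to 7.28 and 5.92 CPM in those of replicate 2. Of the 8 microglial markers, 3 had counts in every library. Oligodendrocyte lineage markers summed to 82.8 and 82.4 CPM in replicate 1 and to 60.1 and 56.1 CPM in replicate 2. The replicates thus differed in their astrocyte and microglial markers, and less in those of the oligodendrocyte lineage. Nothing in the labels said whether the 2 numbers stood for separate cultures, so p-values cover these samples only. In the edgeR fit below, p-values and SE rest on a spread shared across genes, not on how far a gene's own 2 pairs agreed.

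Of the 84 genes, 69 passed the filter on low counts and were tested, 25 HSP, 37 DNAJ and 7 CCT genes. The germ cell member Hspb9 and 5 others (Cct8l1, Dnajb7, Dnajb8, Dnajc5b and Dnajc5g) had 0 counts in all 4 libraries. Another 9 had counts too low to test, among them Hspa1l, Cct6b and the muscle small HSP genes Hspb2 and Hspb7. For these 9 the highest value in any library was 2.30 CPM, for Dnajb3 in total RNA replicate 2.

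Levels differed widely between families. Per kilobase of annotated exon, the median gene reached 51.6 CPM among the 3 HSP90 genes, 30.1 CPM among the 3 HSP110 genes, 22.7 CPM among the 9 HSP70 genes tested and 16.0 CPM among CCT genes, as means of the total RNA libraries. The same median was 4.59 CPM for DNAJ genes and 2.34 CPM for small HSP genes, against 3.67 CPM over all 12336 genes tested. The small HSP group was formed by symbol, with Hspb11 in it, and its members were not checked for chaperone function. Hsp90ab1, the constitutive cytosolic HSP90, was the highest HSP gene per length with 337 and 489 CPM per kilobase in total RNA replicates 1 and 2, and Hspa8, the constitutive HSP70 known as HSC70, followed with 313 and 370. Hsp90ab1 lay above Hspa8 in both total RNA libraries, though their ranges over the replicates overlapped. Transcripts of other genes matched 87.9% of Hspa8 transcript bases and 68.7% of those of Hsp90aa1, the median HSP90 gene. Reads that fit several places were not counted, so these levels and that order are uncertain. The lowest HSP gene tested was Hspbap1, at 0.354 and 0.192 CPM per kilobase.

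**Figure D1:**
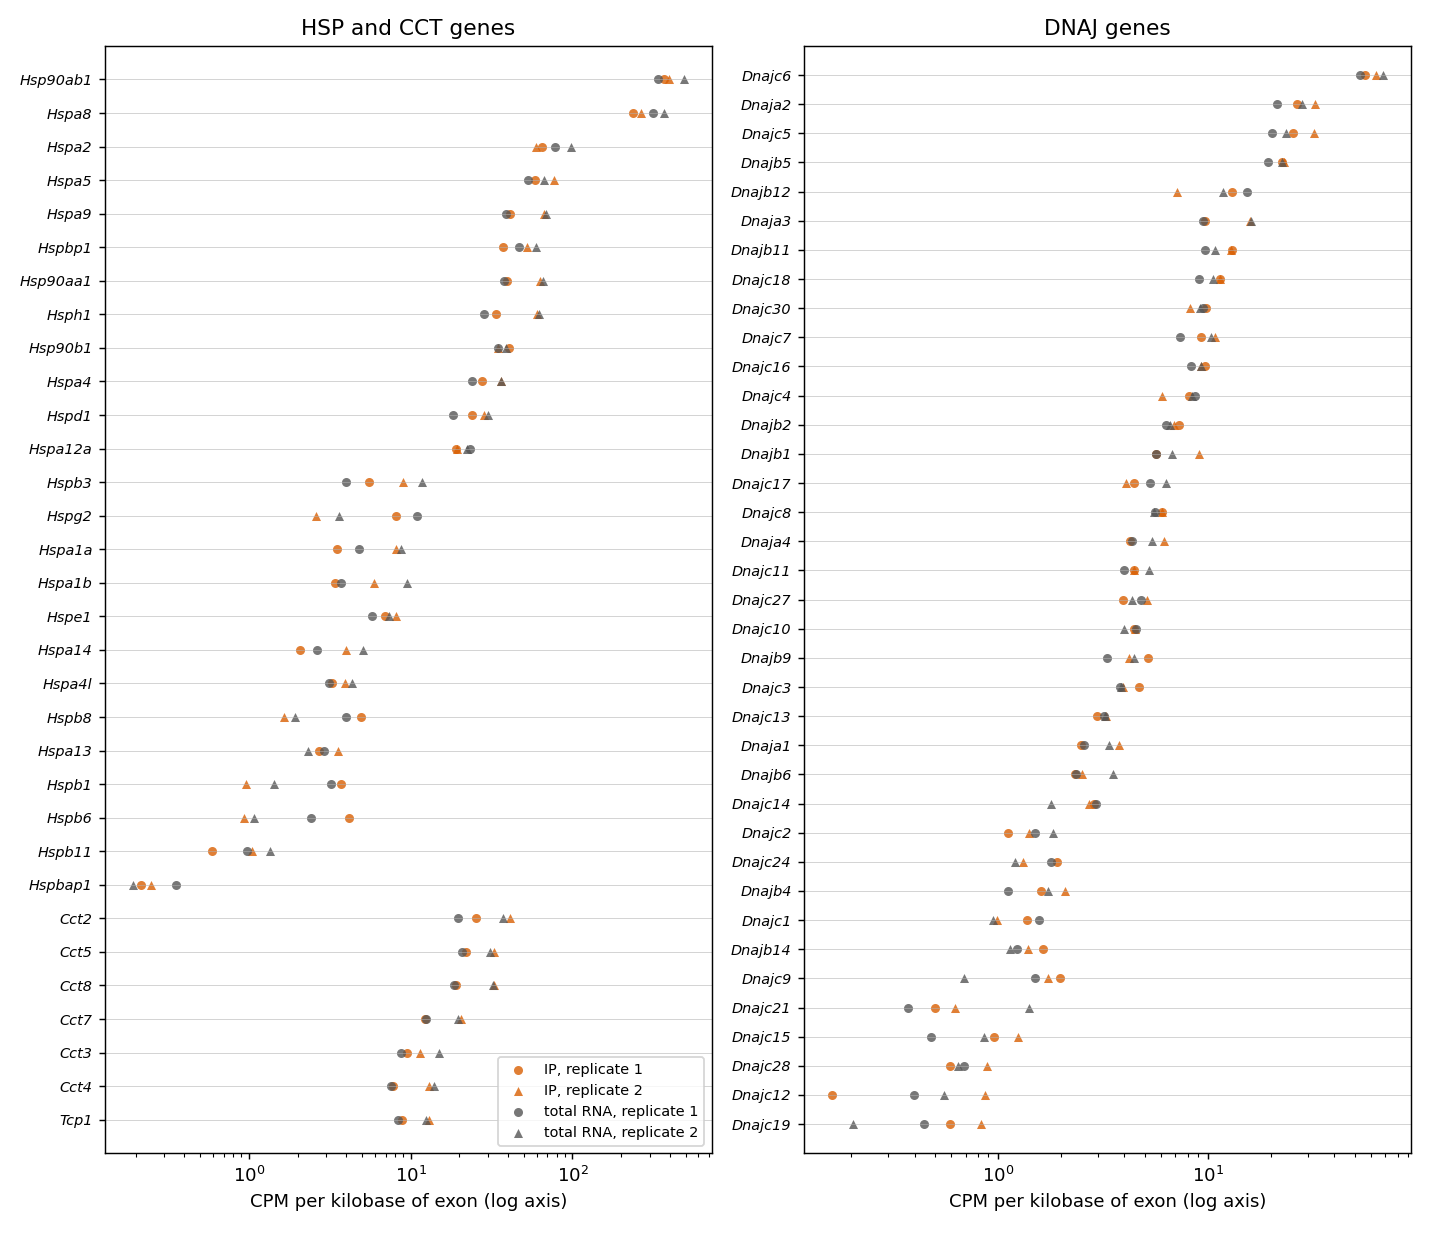
Level of each of the 69 chaperone genes tested, as CPM per kilobase of annotated exon on a log axis, with 1 point for each library (orange, IP; grey, total RNA; circles, replicate 1; triangles, replicate 2). HSP and CCT genes are on the left and DNAJ genes on the right, ordered within a family by mean level in total RNA. Hsp90ab1 and Hspa8 lie above 200 CPM per kilobase in every library, and the CCT genes lie within a narrow band with both triangles to the right of both circles.

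Among DNAJ genes, Dnajc6 stood first with 52.7 and 68.2 CPM per kilobase in total RNA. It encodes auxilin, the neuronal J-domain protein that recruits HSC70 to clathrin coats. Dnajc19, of the mitochondrial import motor, was the lowest at 0.442 and 0.204 CPM per kilobase. CCT genes ran from 8.37 and 12.5 CPM per kilobase for Tcp1 to 19.7 and 37.0 for Cct2. TRiC holds its subunits in equal number, but the length used here is the union of all annotated exons, 6778 bases for Cct7 and 2557 for Cct2, so part of this spread may lie in the gene models and was not tested.

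In the edgeR quasi-likelihood fit with the replicate number as a block, 5 of the 69 passed an adjusted p of 0.05, or 7.25%, while 14.2% of all 12336 genes tested did. Of these, 1 was higher in the IP and 4 were lower, against 6.63% higher and 7.55% lower over all genes. The split over all genes moved with the scaling, from 818 higher and 931 lower to 283 and 878 with library size alone and to 597 and 324 with the GC and length offset. At an unadjusted p under 0.05 there were 14, where 26.1% of all genes were. The gap between chaperones and all genes was not seen in every fit that kept the block. After thinning to equal depth 9 of 69 chaperone genes (13.0%) and 12.9% of all genes were called, and in DESeq2 4 of the 34 with an adjusted p (11.8%) and 11.5% of all genes. Without the block, edgeR called 0 chaperone genes and 0 of all 12336 genes, with 349 of the latter and 0 of the former at an unadjusted p under 0.05. The 5 calls therefore rest on comparing IP with total RNA inside each replicate number, in a fit with 1 residual degree of freedom per gene whose dispersion was shared across genes.

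Dnajc5 was the gene called higher. It encodes cysteine string protein alpha, a synaptic vesicle co-chaperone that works with HSC70. Its level was 175.9 and 223 CPM in IP replicates 1 and 2 and 141 and 163 CPM in total RNA replicates 1 and 2. Both IP libraries lay above both total RNA libraries. The log2 ratio was 0.32 in replicate 1 and 0.45 in replicate 2, and the fitted log2 fold change 0.39 ± 0.10 (SE, n = 2 pairs; edgeR adjusted p = 0.00225). With scaling by library size alone that adjusted p was 0.178.

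Hspa8, the HSP70 partner of Dnajc5, lay on the opposite side. It had 1022 and 1148 CPM in the IP and 1348 and 1591 CPM in total RNA, so both IP libraries fell below both total RNA libraries. The log2 ratios were -0.40 and -0.47 and the fitted change -0.44 ± 0.10 (SE, n = 2 pairs; edgeR adjusted p = 0.000629). Scaling by library size alone gave an adjusted p of 0.0931. Of its longest protein-coding transcript, 87.9% of the bases matched transcripts of other annotated genes at 95% identity or more over at least 50 bases, and reads that fit several places were not counted. The exons counted for Hspa8 (chr9:40800984-40810087, plus strand, mm10) hold 3 C/D box small nucleolar RNAs of intronic type, which some annotated transcripts keep. They are printed here in full, 5′ to 3′, because their reads would add to the Hspa8 count, with the C box (GTGATGA or ATGATGA) and the D box (CTGA) in capitals.

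Snord14c, chr9:40803583-40803668: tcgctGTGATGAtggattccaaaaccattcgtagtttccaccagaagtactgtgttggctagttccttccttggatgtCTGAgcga

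Snord14d, chr9:40803995-40804080: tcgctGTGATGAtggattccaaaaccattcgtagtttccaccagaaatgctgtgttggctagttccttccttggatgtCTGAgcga

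Snord14e, chr9:40804748-40804837: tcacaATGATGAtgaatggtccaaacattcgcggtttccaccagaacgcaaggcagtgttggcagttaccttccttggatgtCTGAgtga

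Small nucleolar RNAs of this class guide methylation of ribosomal RNA and are usually released from introns. The tables hold 1 number per gene, so how many Hspa8 reads came from them was not tested.

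Hspa2, an HSP70 best known from spermatocytes that is also expressed in brain, was called lower as well. It had 171 and 158 CPM in the IP and 207 and 259 CPM in total RNA, again with no overlap. The log2 ratio was -0.27 in replicate 1 and -0.71 in replicate 2, and the fitted change -0.50 ± 0.10 (SE, n = 2 pairs; edgeR adjusted p = 3.48e-05). It was the only one of the 5 called in all 9 fits that kept the block.

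The other lower calls were Dnajb12 and Hspg2. Dnajb12, a J-domain protein anchored in the endoplasmic reticulum membrane, had 43.9 and 24.1 CPM in the IP and 51.9 and 39.9 CPM in total RNA. IP replicate 1 lay above total RNA replicate 2, so the groups overlapped, and the fall of 0.47 ± 0.13 on the log2 scale (SE, n = 2 pairs; edgeR adjusted p = 0.00444) appeared only within pairs. In DESeq2 its adjusted p was 0.147. Perlecan (Hspg2) had 116 and 37.2 CPM in the IP and 156 and 51.6 CPM in total RNA, a difference between replicates larger than that between IP and total RNA. Within pairs its log2 ratios were -0.43 and -0.47 (fitted -0.45 ± 0.11, SE, n = 2 pairs; edgeR adjusted p = 0.00117). With an offset for GC content and length the fitted value of Hspg2 turned to 0.04 (adjusted p = 0.903). Without Hspg2, 4 of 68 genes were called, or 5.88%.

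**Figure D2:**
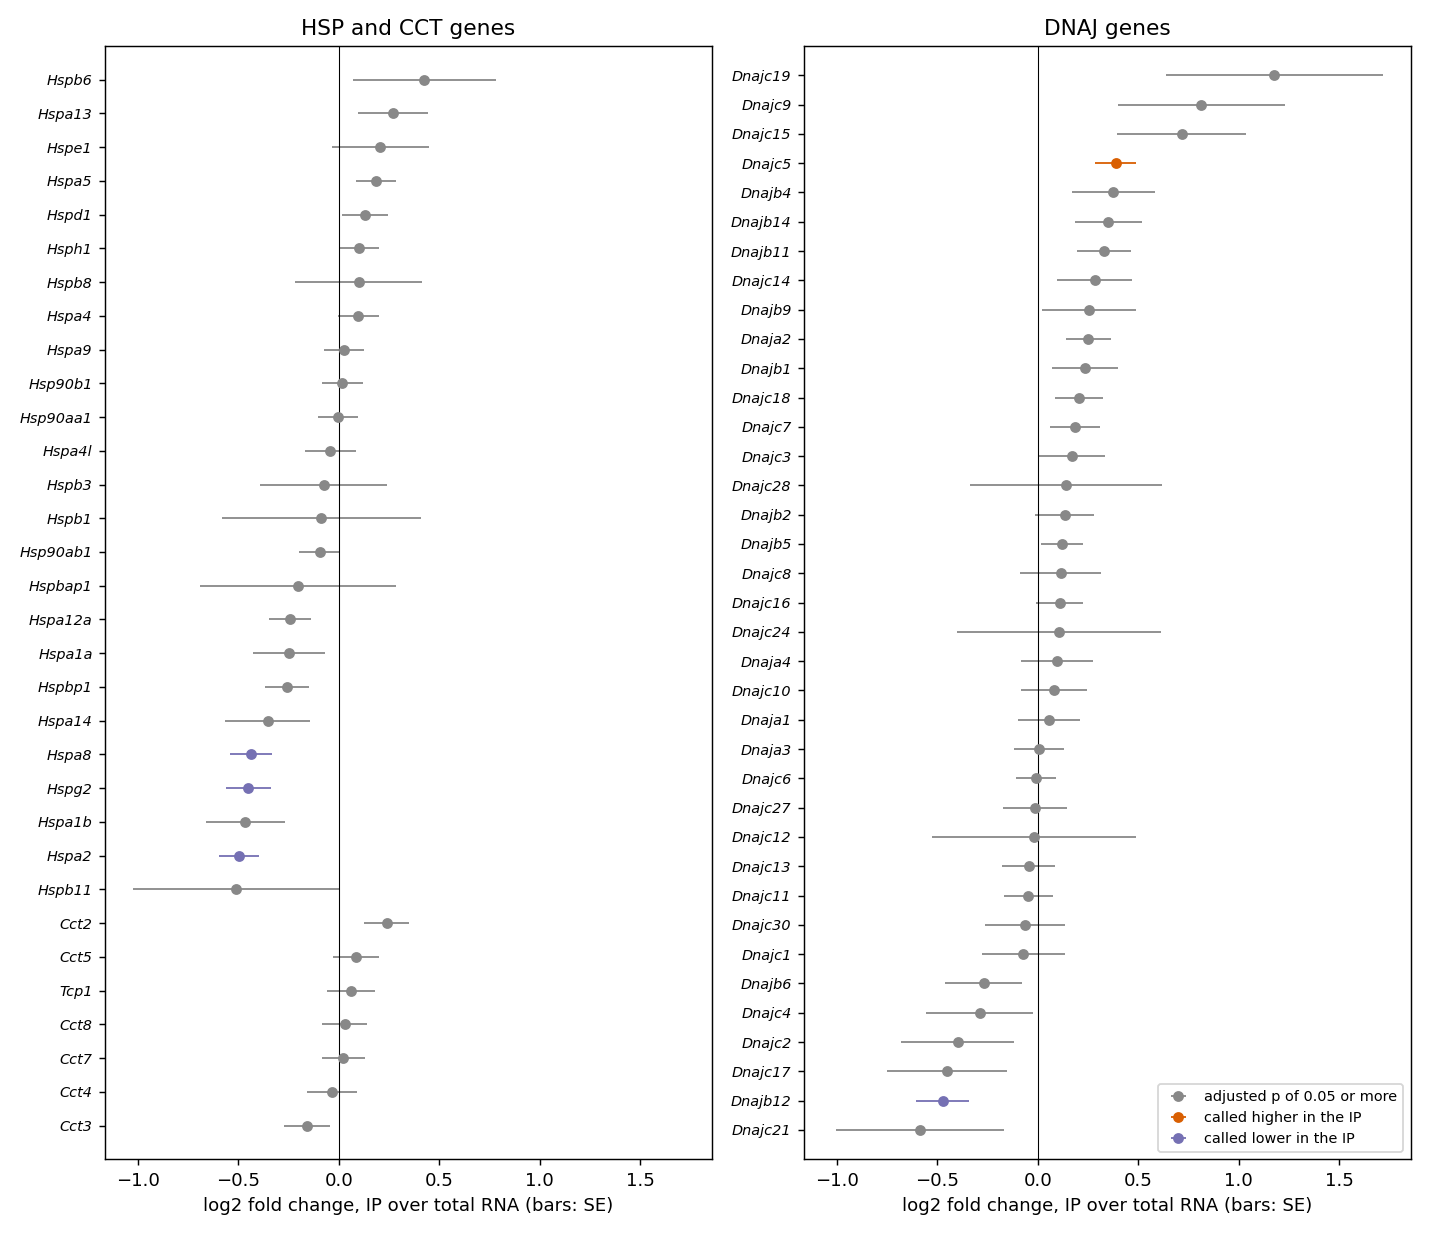
Fitted log2 fold change of IP over total RNA for the 69 chaperone genes tested, with bars of 1 SE (edgeR, replicate block, 2 pairs of libraries). HSP and CCT genes are on the left and DNAJ genes on the right, each family ordered by its value, with orange for the gene called higher (Dnajc5) and purple for the 4 called lower. The CCT genes lie close to 0, while the widest bars belong to low genes such as Dnajc19 and Hspb11.

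The families lay near the middle of all genes. Their median log2 fold changes were -0.07 for HSP, 0.11 for DNAJ and 0.03 for CCT, beside 0.01 for all genes tested. The pairs often differed in the sign of a chaperone gene's log2 ratio. Its sign was shared by the pairs for 53.6% of the chaperone genes, 23 on the higher side and 14 on the lower, and for 66.5% of all genes. Both IP libraries lay above both total RNA libraries for 11 chaperone genes and below them for 6, where 31.8% of all genes were separated one way or the other. All 11 on the upper side were DNAJ genes, and 16.9% of all genes lay there, with 14.9% on the lower side.

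**Figure D3:**
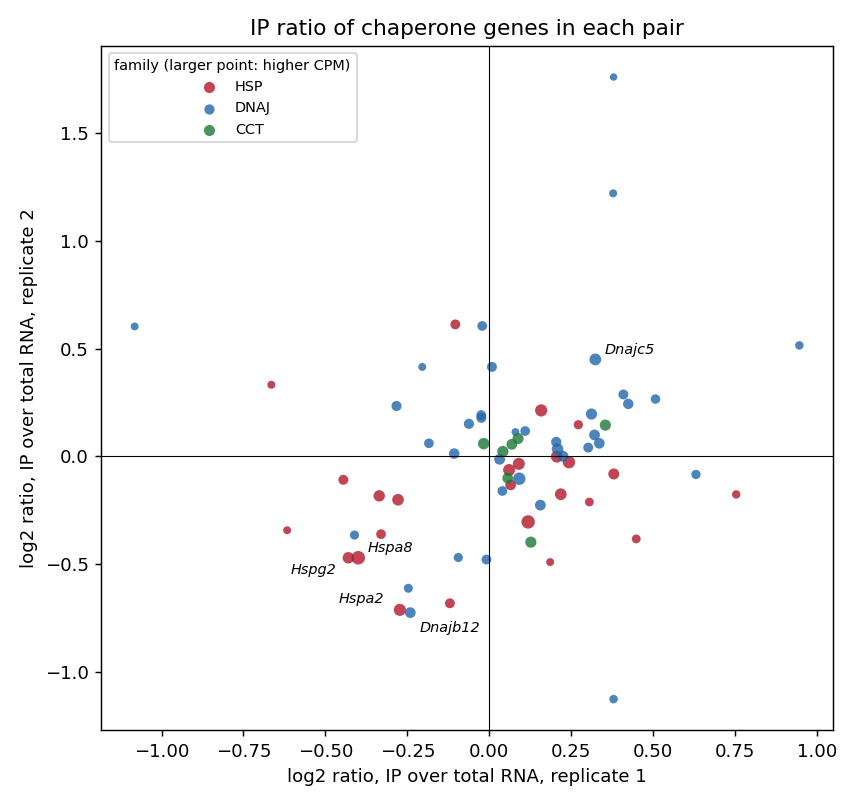
Log2 ratio of IP over total RNA in replicate 1 (horizontal) and replicate 2 (vertical) for the 69 chaperone genes tested, coloured by family, with larger points for genes of higher CPM in total RNA. The 5 genes called are labelled and keep their sign on both axes. Of the others, 32 lie in the quadrants where the pairs have opposite signs.

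None of the 7 CCT genes tested was called (1 of the 8 ring subunits was not analysed here), with an SE of 0.11 to 0.13 per gene. Their fitted log2 fold changes ran from -0.16 ± 0.11 for Cct3 to 0.24 ± 0.11 for Cct2 (SE, n = 2 pairs). The unadjusted p of Cct2 was 0.0335 and its adjusted p from edgeR was 0.147. Tcp1, Cct4, Cct5, Cct7 and Cct8 lay between, at 0.06, -0.03, 0.09, 0.02 and 0.03. The median size of the change, sign aside, was 0.06 for CCT genes against 0.17 for all chaperone genes and 0.23 for all genes tested. In Tcp1 a counted exon holds a small RNA of the annotation, Gm26130, and its share of the Tcp1 counts was not tested.

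Of 9 HSP70 genes tested, 6 had negative log2 ratios in both pairs, as did 32.2% of all genes, and 2 were called lower. Their median was -0.25, and -0.35 to -0.18 over all fits that kept the block. Beside Hspa8 and Hspa2, the heat-inducible Hspa1b had 9.61 and 16.6 CPM in the IP and 10.5 and 26.8 CPM in total RNA, a change of -0.46 ± 0.20 (SE, n = 2 pairs; edgeR adjusted p = 0.0983). Its neighbour Hspa1a had 10.4 and 24.1 CPM against 14.3 and 26.0, a change of -0.25 ± 0.18. These genes are near copies, with 75.7% of Hspa1a and 78.5% of Hspa1b transcript bases shared with other genes, so their separate values are uncertain. On the positive side stood Hspa5, the HSP70 of the endoplasmic reticulum known as BiP, with 249 and 325 CPM in the IP and 223 and 280 CPM in total RNA (0.19 ± 0.10, edgeR adjusted p = 0.213). The mitochondrial HSP70 gene Hspa9 showed 0.02 ± 0.10.

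Some further HSP genes passed an unadjusted p of 0.05 alone, and they were chosen for mention after their values were seen. Hspa12a, a distant HSP70 relative expressed in brain, had 110 and 111 CPM in the IP and 133 and 128 CPM in total RNA, with no overlap (-0.24 ± 0.10, edgeR adjusted p = 0.111). Hspbp1, which releases nucleotide from HSP70, changed by -0.26 ± 0.11 (edgeR adjusted p = 0.0969). Neither passed the threshold.

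The 3 HSP90 genes lay near 0, and in each the sign changed between the pairs. Hsp90ab1 had 1097 and 1187 CPM in the IP and 1010 and 1465 CPM in total RNA, and its fitted change was -0.09 ± 0.10. The stress-inducible Hsp90aa1 and the endoplasmic reticulum form Hsp90b1 stood at 0.00 ± 0.10 and 0.02 ± 0.10. Among HSP110 nucleotide exchange factors, Hsph1 and Hspa4 were both at 0.10 ± 0.10 and Hspa4l at -0.04 ± 0.13. In each of these 3 the sign also changed between the pairs. The mitochondrial chaperonin genes Hspd1 and Hspe1 had 0.13 ± 0.12 and 0.21 ± 0.24, and the small HSP gene Hspb1, at 0.988 to 3.83 CPM, had -0.09 ± 0.50. The SE of Hspb1 was as large as the largest change called among the chaperone genes. A difference of that size would therefore not have been detectable at this depth. Of transcript bases, 68.7% in Hsp90aa1, 71.1% in Hspd1, 81.0% in Hspe1 and 72.6% in Hspb1 matched other genes. Their values are uncertain for the same reason as those of Hspa1a and Hspa1b.

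Of 37 DNAJ genes, 17 were above 0 in both pairs and 5 below, where 34.3% and 32.2% of all genes were. Their median of 0.11 turned to -0.0057 with the GC and length offset. The class A and B partners of cytosolic HSP70 were Dnaja1 at 0.06 ± 0.15, Dnajb1 at 0.24 ± 0.17 and Dnajb6, which holds back protein aggregation, at -0.27 ± 0.19. Auxilin (Dnajc6) had 332 and 375 CPM in the IP and 312 and 403 CPM in total RNA, a change of -0.01 ± 0.10. The J-domain protein Dnajc7, which binds both HSP70 and HSP90, was at 0.19 ± 0.12. None of these 5 passed the test. Of transcript bases, 47.4% in Dnajb6 and 33.4% in Dnaja1 matched other genes, so these values are uncertain too. The share was 19.4% in Dnajc7, 2.47% in Dnajb1 and 0% in Dnajc6.

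The largest fitted DNAJ values belonged to low genes. Dnajc19 had 2.39 and 3.32 CPM in the IP and 1.78 and 0.822 CPM in total RNA, near the level of a few counts, and its 1.18 ± 0.54 had an edgeR adjusted p of 0.134. A pair of more expressed genes were chosen after their values were seen. Dnajb11, a BiP partner in the endoplasmic reticulum, had 42.2 and 41.5 CPM in the IP and 31.4 and 35.0 CPM in total RNA with no overlap (0.33 ± 0.13, edgeR adjusted p = 0.0790). The cytosolic Dnaja2 had 78.6 and 96.1 CPM against 63.2 and 83.8 (0.25 ± 0.11, edgeR adjusted p = 0.117).

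Grouped by where the proteins work, none of the 8 genes of the endoplasmic reticulum list was called and their median was 0.18, which turned to -0.0035 with the GC and length offset. That list need not be complete, and it leaves out Dnajb12, which was called lower. With it, added after its value was seen, 1 of 9 was called and the median was 0.17. Of 9 mitochondrial members none was called, with a median of 0.02, and of 30 cytosolic members 2 were called lower (Hspa8 and Hspa2), with a median of 0.03. The list for synaptic vesicles and clathrin held 5 genes, of which Dnajc5 was called higher and Hspa8 lower. Dnajc6, Dnajc13 (an endosomal J-domain protein) and Dnajc16 stood at -0.01, -0.04 and 0.11. The lists were not checked against protein location, so the place of single members such as Dnajc16 is not settled here.

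Partners of these chaperones outside the 3 families gave a similar share of calls. Of 56 genes tested from a list of co-chaperones and related factors, 3 were higher and 2 lower in the IP, or 8.93%. Over all genes tested the share was 14.2%. Hsbp1, a small protein that binds the heat shock factor HSF1, had the widest gap, with 137 and 127 CPM in the IP and 72.6 and 71.7 CPM in total RNA. Its log2 ratios were 0.91 and 0.83 and the fitted change 0.87 ± 0.11 (SE, n = 2 pairs; edgeR adjusted p = 8.45e-13). Bag6, a holdase for membrane protein precursors, had 259 and 266 CPM against 364 and 375, with log2 ratios of -0.49 in both pairs (fitted -0.49 ± 0.10, edgeR adjusted p = 2.77e-05). Calnexin (Canx, 0.27 ± 0.10), the HSP90-bound phosphatase Ppp5c (0.30 ± 0.11) and the myosin co-chaperone Unc45a (-0.36 ± 0.13) passed narrowly, with edgeR adjusted p values of 0.0414, 0.0443 and 0.0485. Each of these 3 lost its call in several of the 8 alternatives that kept the block, leaving 2 to 4 of the 5 called. Bag6 lost its call with the GC and length offset, and Hsbp1 was called in all 9 fits. The gene of HSF1 itself stood at 0.01 ± 0.17.

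A wider difference separated replicate 1 from replicate 2. It appeared alike in IP and total RNA and is described without a test, because each replicate number is 1 sample. All 7 CCT genes were higher in replicate 2 in both kinds of library, as were 37.4% of all genes. Averaged over the kinds of library, CCT genes were higher by a median of 0.69 on the log2 scale, from 0.52 for Cct3 to 0.81 for Cct4. For Cct8, for example, total RNA held 57.2 and 99.3 CPM in replicates 1 and 2, and the IP 58.9 and 101. Of all 69 chaperone genes, 41 were higher in replicate 2 in both kinds of library (59.4%) and 13 were lower (18.8%), where 38.4% of all genes were lower. Among the 30 cytosolic members 26 were higher, and among the 8 of the endoplasmic reticulum 1 was, or 7 with scaling by library size alone. These values depend on TMM scaling. With library size alone every gene shifted towards replicate 2, by 0.41 in the IP and 0.55 in total RNA, and 82.6% of the chaperone genes and 70.8% of all genes were higher there. Relative to the median of all genes the CCT median was 0.70. Scaling moves every gene alike, so it cannot change that value.

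Members of a list of heat-inducible genes differed among themselves. Hsph1 had 245 and 441 CPM in IP replicates 1 and 2 and 207 and 449 CPM in total RNA, an average of 0.98 on the log2 scale. Hspa1a and Hspa1b were 1.02 and 1.06 higher in replicate 2 and Hsp90aa1 0.73, while Hspa8, Hspe1 and Hspa4l were 0.20, 0.29 and 0.38 higher. The list includes Hspa8, although that gene was described above as constitutive. The median of the list was 0.47, below the 0.69 of the CCT genes. Of the 11 genes of the heat-inducible list, 10 were higher in replicate 2 in both kinds of library, and the exception was Hspb1.

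Some small HSP genes and perlecan went the other way. Hspb1 had 3.83 and 0.988 CPM in IP replicates 1 and 2 and 3.34 and 1.48 CPM in total RNA, a difference of -1.40 on the log2 scale. Hspb6 and Hspb8, chosen after their values were seen, differed by -1.57 and -1.26, and Hspg2 by -1.61. The replicate 1 libraries, in which these genes were higher, were those with the higher astrocyte and microglial marker sums. All 7 astrocyte markers tested were higher there, by a median of 1.48 on the log2 scale. Vascular and fibroblast markers summed to 18.8 and 23.4 CPM in replicate 1 and to 4.04 and 6.90 CPM in replicate 2, and the endothelial marker Cldn5 was at 0 throughout. The part of these cells in the chaperone differences was not tested, and in bulk samples fewer cells of a type and less RNA per cell cannot be told apart. Hspb3, a small HSP best known from muscle, was 1.08 higher in replicate 2, so the small HSP genes did not move together.

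**Figure D4:**
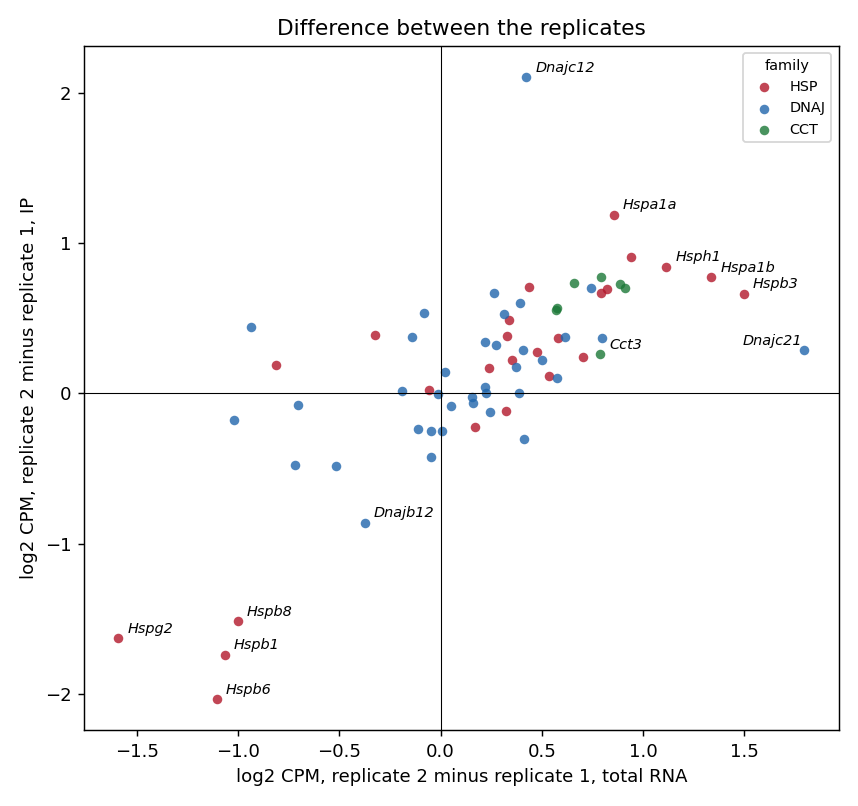
Log2 CPM of replicate 2 minus replicate 1 in total RNA (horizontal) and in the IP (vertical) for the 69 chaperone genes tested, coloured by family. All 7 CCT genes lie in the upper right quadrant, higher in replicate 2 in both kinds of library, and Hspb1, Hspb6, Hspb8 and Hspg2 lie apart at the lower left. Labels mark some genes far from the centre and Cct3, the CCT gene with the smallest average difference.

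Many of these genes are known targets of heat shock factor, which binds inverted repeats of the unit GAA, written as GAANNTTC for a pair of units and as GAANNTTCNNGAA or TTCNNGAANNTTC for 3 units. RefSeq promoter windows of 250 bases before to 50 bases after the start (GRCm38.p6) were searched on both strands for these letters, and a longer match always holds the shorter one. They were found for 69 of the 84 genes, tested or not, with 88 promoters. The pair occurred in 20.5% of these promoters against 7.86% of all 32851, and 3 units in 6.82% against 0.603%. By family the pair was in 10 of 28 HSP promoters, 6 of 50 DNAJ promoters and 2 of 10 CCT promoters. The 6 promoters with 3 units hold 3 distinct elements, since Dnajb6 and Hsph1 each have overlapping windows for different starts and Hspd1 and Hspe1 share theirs. A match describes letters in a window and does not show that the factor binds. The stretches with at least 3 units belonged to Hspd1, Hspe1, Hsph1 and Dnajb6, and they are shown because the longer element is the rarer one. In Hspd1 and Hspe1 overlapping matches join into a stretch longer than 3 units. Hspa1a is shown beside them as an example of the 16 genes with a pair. Capitals mark the element, and letters run 5′ to 3′ on the strand of the gene.

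Hspe1, chr1:55088005-55088130, plus strand, element at -89 to -72: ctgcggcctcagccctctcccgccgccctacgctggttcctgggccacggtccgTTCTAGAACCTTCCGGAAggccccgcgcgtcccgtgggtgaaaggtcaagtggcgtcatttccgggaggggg

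Dnajb6, chr5:29735798-29735897, plus strand, element at -46 to -34: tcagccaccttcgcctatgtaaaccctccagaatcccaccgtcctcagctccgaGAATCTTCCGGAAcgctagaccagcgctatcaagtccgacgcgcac

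Hspa1a, chr17:34972199-34972314, minus strand, element at -104 to -97: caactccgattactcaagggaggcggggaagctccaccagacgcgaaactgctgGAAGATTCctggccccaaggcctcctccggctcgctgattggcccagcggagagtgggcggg

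Hsph1, chr5:149636288-149636300, minus strand, element at 16 to 28 after the start: TTCTGGAAAGTTC

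The window of Hspe1 is also that of Hspd1. The promoters of these genes, which form the mitochondrial chaperonin and its lid, face away from each other and share 285 bases (chr1:55087898-55088182), so 1 element serves both windows. The window of Hspa1b held the same letters as that of Hspa1a.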

How the data were processed

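The authors trimmed single-end reads with cutadapt, aligned them end to end to mm10 with STAR (up to 10 loci kept) and counted them per gene in stranded mode with featureCounts 1.5.3, per the file headers and the study's methods. The deposited values are raw counts, and reads at several loci or in several genes were not counted. Removal of PCR duplicates was not named, so detection limits cover counting error only. Each file also lists exonic length.

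Genes were given GENCODE M21 symbols by identifier (31011 of 31053). The 4 libraries (2 IP, 2 total RNA) were fitted in R 4.3.3 with edgeR 4.0.16: filterByExpr, TMM scaling, replicate number as a block, two-sided quasi-likelihood test, Benjamini-Hochberg adjustment over 12336 genes, threshold 0.05. The prior degrees of freedom were infinite, so all genes took the dispersion trend (common biological coefficient of variation 7.93%). An exact permutation test of 2 against 2 libraries that ignores the pairs cannot go below p = 0.333. Exchanging labels only within pairs leaves fewer arrangements still. The block was used because the study took total RNA from the IP samples. Same-numbered libraries deviated together from their group means (correlation 0.733 across genes). Ratios within a pair are differences of log2 CPM with a prior count of 2. Levels between genes were compared per kilobase of exon. Shared sequence was sought with blastn 2.17.0, and promoter and small RNA sequences were read from RefSeq and GENCODE tables. The fit was tested on simulated data.

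Alternatives were the fit without the block, other scalings and filters, DESeq2 1.42.0, limma-voom (limma 3.58.1), a GC and length offset, thinning to equal depth, and leaving out each library. Named genes were every member called, a set of main chaperones whatever their values, the member with the highest and the lowest level of each family, and the co-chaperones called. The members and lists were chosen with earlier results of these data known.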

Additional observations from a re-analysis of the deposited data

How the results depend on the processing

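The replicate block decided the calls. Without it edgeR called 0 chaperone genes, 0 of them higher and 0 lower, and 0 co-chaperones, and the DNAJ median was 0.116. With scaling by library size alone the median over all genes was -0.07, and that left 3 chaperone genes, 0 of them higher, and 3 co-chaperones. Thinning to equal depth called 9 chaperone genes (3 higher, 6 lower; 13.0%, beside 12.9% of all genes) and 3 co-chaperones. The other counts that moved were 3 co-chaperones with median-ratio size factors and 2 each with DESeq2, no low-count filter, and the GC and length offset. Of the 5 chaperone genes called, Hspa8 and Dnajc5 were lost with library size alone, Hspg2 with the GC and length offset and Dnajb12 in DESeq2 (adjusted p = 0.147).

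The DNAJ median was 0.028 with library size alone, 0.091 with median-ratio factors, 0.093 in DESeq2, 0.129 with no filter, 0.122 with at least 10 counts in every library and -0.0057 with the GC and length offset. The CCT median was -0.056, 0.013, 0.013, 0.069, 0.041 and -0.096 under the same alternatives, and -0.049 after thinning.

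Hspg2, called lower at -0.45, changed sign with the GC and length offset, to 0.037. Other values that changed sign were not called. With that offset they were Tcp1 at -0.096, Cct8 at -0.209, Hsp90b1 at -0.198, Hspa9 at -0.180, Hspd1 at -0.018, Hspe1 at -0.066 and Dnaja1 at -0.023. With library size alone they were Tcp1 at -0.025, Cct5 at -0.00093, Cct7 at -0.063, Cct8 at -0.056, Hsp90b1 at -0.064, Hspa9 at -0.058 and Dnaja1 at -0.034. After thinning they were Cct7 at -0.049, Cct8 at -0.049, Hsp90aa1 at 0.045, Hsp90b1 at -0.020 and Dnaja1 at -0.053. Hsp90aa1 and Dnajc6 turned to 0.018 and 0.015 with no filter and to 0.0057 and 0.0024 with at least 10 counts, and Hspb1 to 0.039 without the block. Apart from the effect of the block, the cause was not tested.

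Leaving out 1 library at a time, fitted without the block so that the replicate difference entered, gave 0 to 0 calls of chaperone genes in either direction and of co-chaperones. Medians ran from -0.27 to 0.17 for HSP, 0.058 to 0.18 for DNAJ and -0.33 to 0.40 for CCT. Single genes that changed sign in such a fit ran from -1.48 to 0.57 for Hspg2, -0.25 to 0.37 for Tcp1, -0.18 to 0.75 for Cct2, -0.53 to 0.26 for Cct3, -0.47 to 0.47 for Cct4, -0.24 to 0.40 for Cct5, -0.39 to 0.40 for Cct7 and -0.42 to 0.48 for Cct8. The ranges were -0.40 to 0.43 for Hsp90aa1, -0.36 to 0.17 for Hsp90ab1, -0.096 to 0.13 for Hsp90b1, -0.021 to 0.37 for Hspa5, -0.39 to 0.48 for Hspa9, -0.18 to 0.40 for Hspa4, -0.96 to 0.27 for Hspa1a, -1.03 to 0.32 for Hspa1b, -0.43 to 0.73 for Hsph1, -0.20 to 0.51 for Hspd1 and -1.25 to 0.71 for Hspb1. They were -0.28 to 0.33 for Dnaja1, -0.14 to 0.54 for Dnajb1, -0.54 to 0.044 for Dnajb6, -0.19 to 0.18 for Dnajc6, -0.048 to 0.45 for Dnajc7 and -0.62 to 0.27 for Hspbap1. Scaling by library size, chosen after seeing the data for the difference between replicates, turned its median over all genes from -0.0046 to 0.48 and moved the CCT median from 0.69 to 1.18.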
